A study of Mus musculus with 4 samples.

Results

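Isl1, Ppp1r1b, Rgs9, Pde10a, Prkcd, Meis2 and Foxp2 mark the neurons of the striatum and of the central amygdala, and they were examined here as a check of the dissected tissue. Every array probe whose file entry carries one of these 7 gene names was taken, which gave 12 of the 41174 probes on the array, or 7 of 28632 gene names. All 12 probes passed the filter on dim probes. Whole amygdala was taken from 10-week-old C57BL/6J males, 6 h after saline or lipopolysaccharide (LPS) had been injected into the peritoneum. The mice were wild type (WT) or P2X7R knockouts (KO), which lack a receptor channel opened by extracellular ATP and encoded by P2rx7. LPS, which is shed by Gram-negative bacteria and sensed by innate immune cells, was given at a dose stated in the sources both as 7.5 µg per mouse and as 250 µg/kg. Each of the 4 groups (WT saline, WT LPS, KO saline and KO LPS) held 4 one-colour arrays. The labels state 4 mice per group but do not tie an array to a mouse, and p-values therefore reflect variation among arrays, which may be technical. The knockout allele and its breeding are not given in the sources used here, so nothing further can be said of the line.

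The central amygdala lies next to the striatum and, like it, is built mostly of inhibitory projection neurons that arise in the embryonic ganglionic eminences. These neurons share transcription factors such as MEIS2, FOXP2 and ISL1. Striatal projection neurons answer dopamine and adenosine through cyclic AMP: DARPP-32, the product of Ppp1r1b, inhibits protein phosphatase 1 once protein kinase A has phosphorylated it, PDE10A degrades cyclic nucleotides, and RGS9 speeds the end of G protein signals. Protein kinase C delta, the product of Prkcd, marks a class of neurons in the lateral part of the central amygdala and is also abundant in parts of the thalamus. In whole tissue, fewer cells of a type and less RNA per cell cannot be told apart.

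The probes are 60-base DNA oligonucleotides, and the sequences that matter most below are those of genes whose probes disagreed or whose base composition was extreme. Sequences are from the files, 5′ to 3′, with G and C in capitals and A and T in lower case, and positions are on mouse build mm9. The ends of the first 3 lie further apart in the genome than 60 bases, so each crosses a splice junction, and these are given whole. Of the others the first 30 bases are shown.
Foxp2 probe A_51_P233753, chr6:15363873-15365044: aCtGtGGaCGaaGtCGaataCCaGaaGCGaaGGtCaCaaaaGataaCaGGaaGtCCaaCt
Prkcd probe A_52_P197498, chr14:31414383-31414970: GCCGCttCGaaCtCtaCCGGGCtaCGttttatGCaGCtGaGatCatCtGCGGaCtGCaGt
Ppp1r1b probe A_52_P664867, chr11:98216810-98218184: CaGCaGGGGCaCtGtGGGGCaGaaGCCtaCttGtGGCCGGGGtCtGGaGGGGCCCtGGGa
Foxp2 probe A_52_P56818, chr6:15389279-15389338: GCGtattGttatatatataGtaCattGCGt
Pde10a probe A_51_P419017, chr17:9174995-9175054: GaGaaatCCaaaCtGttGattaCaGGtGCa
Pde10a probe A_52_P972559, chr17:9179375-9179434: aGaaatCttttGtGGatatGtaattataCa
Meis2 probe A_52_P277641, chr2:115689066-115689125: aaGGaGCaaGaGaataCtGtaaCaaaCttC
Meis2 probe A_52_P290211, chr2:115821828-115821887: aGaatGaCtCttCGGtttCtaGCtaCCaGt
The whole Ppp1r1b probe holds 70% G and C, at percentile 99.8 of the kept probes, and the AT-rich Pde10a probe A_52_P972559 holds 20%, at percentile 0.067. The median of kept probes is 41.7%. The 2 Foxp2 probes hold 45% (A_51_P233753) and 35% (A_52_P56818). The remaining probes are those of Isl1 (A_52_P337246, chr13:117088774-117088833, 35%), Rgs9 (A_51_P371034, chr11:109086809-109086868, 45%), the other Prkcd probe (A_51_P460734, chr14:31409035-31409094, 43.3%) and the other Meis2 probe (A_51_P422429, chr2:115689130-115689189, 43.3%).

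Levels below are log2 intensities set against each array's own 75th percentile, which is 0 on this scale, and they are not compared between probes. Differences are log2 values ± SE from 1 limma fit of 4 group means over all 16 arrays, and a probe was called at a Benjamini-Hochberg adjusted p under 0.05 over the 28345 kept probes. The 75th percentile ranged from 581.3 to 1164.7 intensity units in WT and from 345.9 to 614 in KO, and 58.1% to 71.9% of probes per array lay well above background. P2rx7 was lower in KO on its brighter probe (0.42 ± 0.51 in WT saline against −1.09 ± 0.34 in KO saline, SD, n = 4) but not on its other probe (−3.90 ± 0.69 against −3.66 ± 0.29), and where the deletion lies relative to the probes was not known here. All WT arrays lie on slides 1 and 2 and all KO arrays on slides 3 and 4, scanned in separate sessions, so genotype, slide and scan session cannot be told apart in any difference between KO and WT. WT saline replicates 1 and 2, on slide 1, stood apart from replicates 3 and 4 in earlier results, and counts are also given without them.

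Of the 7 genes, counted by their brightest probe, 5 were lower in KO than in WT after saline, and 5 were lower after LPS, with none higher in either. Of all 19462 genes 22.3% were called lower and 28.5% higher after saline, and 21.2% lower and 25.9% higher after LPS. The genes were Isl1, Foxp2, Ppp1r1b, Prkcd and Pde10a in both comparisons. The median difference of the 7 was −1.67 after saline and −1.01 after LPS, against 0.07 and 0.05 over all genes. At the level of probes, 7 of 12 were lower and 2 higher after saline, where 25.5% of all kept probes were called lower and 26.5% higher. After LPS 7 were lower and 1 higher, against 24.4% and 24% of all kept probes. The KO and WT arrays did not overlap on 8 of the 12 probes after saline and on 7 after LPS, beside 47.4% and 52.3% of all kept probes. Without the 2 WT saline arrays of slide 1, 4 genes were called lower in each comparison, and Pde10a no longer passed (adjusted p = 0.168 after saline and 0.062 after LPS).

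**Figure D1:**
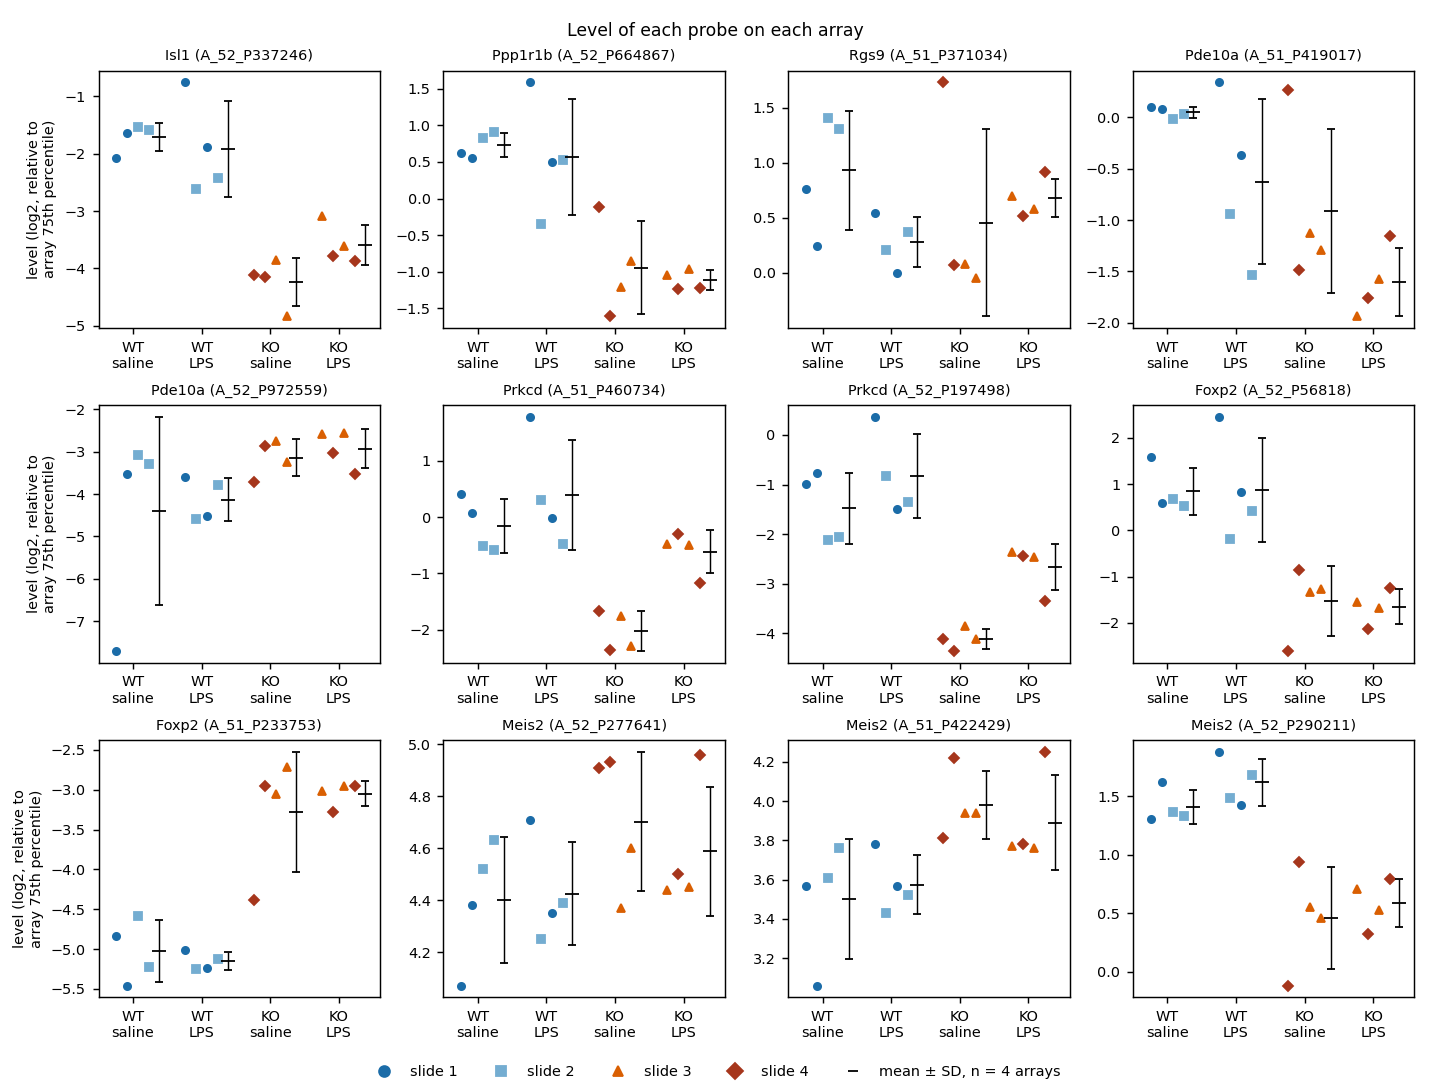
Level of each of the 12 probes (log2, relative to the array 75th percentile) on each of the 16 arrays, by group on the horizontal axis, with the slide as symbol and colour and the group mean ± SD (n = 4 arrays) as a bar. All KO arrays lie below all WT arrays for Isl1 and Foxp2 A_52_P56818, and above them for Foxp2 A_51_P233753, while for Ppp1r1b they lie below within each treatment.

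Isl1 encodes a LIM homeodomain transcription factor of striatonigral projection neurons and of cholinergic neurons. Its level was −2.08, −1.65, −1.54 and −1.59 on the WT saline arrays and −0.76, −2.62, −1.89 and −2.42 on the WT LPS arrays. It was −4.12, −4.14, −3.86 and −4.83 on the KO saline arrays and −3.09, −3.79, −3.61 and −3.87 on the KO LPS arrays. All 8 KO arrays lay below all 8 WT arrays, while the treatments overlapped within each genotype. The difference was −2.52 ± 0.34 after saline (5.75-fold lower in KO, adjusted p = 3.39e-05) and −1.67 ± 0.34 after LPS (3.18-fold, adjusted p = 0.000972). Isl1 was dim in KO: its intensity was 12.2 to 72.3 units there and 109 to 350 in WT, and KO saline replicate 4 was not well above background. Under normexp background correction, which starts from the raw intensity and adds an offset of 50, the difference after saline was 0.06 (adjusted p = 0.902) and after LPS −0.46 (adjusted p = 0.352). The same correction moved the median of all genes to 0.44 after saline and 0.15 after LPS. It also moved the share of called genes that were higher in KO after saline from 56.1% to 73.3%. The Isl1 call held in each of the 16 leave-one-out fits.

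Foxp2 encodes a forkhead transcription factor found in striatal projection neurons, in intercalated cells of the amygdala and in parts of the central amygdala, and its probes gave opposite results. On the brighter probe, A_52_P56818, the level was 1.59, 0.59, 0.67 and 0.52 in WT saline and 2.45, −0.19, 0.82 and 0.42 in WT LPS. In KO it was −2.61, −0.86, −1.34 and −1.27 after saline and −1.54, −2.13, −1.69 and −1.24 after LPS. All KO arrays lay below all WT arrays, by −2.36 ± 0.48 after saline (5.14-fold, adjusted p = 0.000878) and −2.53 ± 0.48 after LPS (5.77-fold, adjusted p = 0.000561). On the junction probe, A_51_P233753, the level was −4.84, −5.46, −4.58 and −5.22 in WT saline and −5.01, −5.25, −5.24 and −5.12 in WT LPS. It was −4.39, −2.95, −3.06 and −2.72 in KO saline and −3.02, −3.28, −2.95 and −2.95 in KO LPS. Here all KO arrays lay above all WT arrays, by 1.74 ± 0.29 after saline (adjusted p = 0.000224) and 2.10 ± 0.29 after LPS (adjusted p = 4.96e-05). This probe was close to background, with intensities of 16.7 to 40.8 units in WT and 23.6 to 75.9 in KO, though scored well above background on all 16 arrays. The junction probe minus the bright probe ranged from −7.46 to −5.06 over the WT arrays and from −2.10 to −1.15 over the KO arrays. With each array corrected for probe base composition the bright probe was lower by −1.12 (adjusted p = 0.0346) after saline and −1.33 after LPS. With that correction the junction probe differed by 0.63 (adjusted p = 0.0948) after saline and 0.99 (adjusted p = 0.014) after LPS.

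Meis2 encodes a TALE homeodomain transcription factor of the ganglionic eminence and of the neurons that arise from it. On its brightest probe, A_52_P277641, the level was 4.07, 4.38, 4.52 and 4.63 in WT saline, 4.71, 4.25, 4.35 and 4.39 in WT LPS, 4.91, 4.93, 4.37 and 4.60 in KO saline, and 4.44, 4.5, 4.45 and 4.96 in KO LPS. The groups overlapped, and the KO minus WT difference was 0.30 after saline (95% interval −0.10 to 0.71) and 0.16 after LPS (−0.24 to 0.57), with neither called. The neighbouring probe A_51_P422429 was higher by 0.48 ± 0.18 in KO after saline (adjusted p = 0.0378) and by 0.31 ± 0.18 after LPS (adjusted p = 0.17). That saline call was lost in 7 of 9 other settings with a test, among them quantile normalization (0.23, adjusted p = 0.313). It was also lost in 5 of 16 leave-one-out fits (adjusted p up to 0.135). These were the fits without KO saline replicate 2, 3 or 4 or WT saline replicate 1 or 2. The probe A_52_P290211 lies elsewhere on the chromosome, carries another transcript accession in the files, and differed from both. Its level was 1.31, 1.62, 1.37 and 1.33 in WT saline, 1.88, 1.49, 1.43 and 1.68 in WT LPS, −0.12, 0.94, 0.55 and 0.46 in KO saline, and 0.71, 0.32, 0.53 and 0.79 in KO LPS. All KO arrays lay below all WT arrays, by −0.95 ± 0.21 after saline (adjusted p = 0.00141) and −1.03 ± 0.21 after LPS (adjusted p = 0.000841). A_52_P277641 minus this probe ranged from 2.70 to 3.30 over the WT arrays and from 3.73 to 5.04 over the KO arrays. A_51_P422429 minus A_52_P277641 overlapped, at −1.32 to −0.50 and −1.11 to −0.43.

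Ppp1r1b, which encodes DARPP-32, had a level of 0.62, 0.56, 0.83 and 0.91 in WT saline and 1.59, −0.35, 0.50 and 0.53 in WT LPS. In KO it was −0.11, −1.61, −1.21 and −0.85 after saline and −1.04, −1.24, −0.96 and −1.23 after LPS. The KO arrays lay below the WT arrays within each treatment, with WT LPS replicate 2 and KO saline replicate 1 the closest to the other genotype. The difference was −1.67 ± 0.34 after saline (3.19-fold lower in KO, adjusted p = 0.000985) and −1.68 ± 0.34 after LPS (3.21-fold, adjusted p = 0.00101). The gene stayed called in all leave-one-out fits and in all 10 other settings with a test, where the difference ranged from −2.43 to −1.44 after saline and from −2.17 to −1.35 after LPS.

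Rgs9 encodes a GTPase-activating protein for G alpha subunits that is concentrated in striatal projection neurons, and it was not called in any comparison. Its level was 0.76, 0.24, 1.41 and 1.31 in WT saline, 0.54, 0.21, 0.00 and 0.37 in WT LPS, 1.73, 0.07, 0.08 and −0.05 in KO saline, and 0.70, 0.52, 0.58 and 0.92 in KO LPS. KO saline replicate 1 was the highest of all 16 arrays and the other 3 KO saline arrays were below all WT saline arrays. The KO minus WT difference was −0.47 after saline (95% interval −1.21 to 0.26, adjusted p = 0.261) and 0.40 after LPS (−0.33 to 1.13, adjusted p = 0.355). Without KO saline replicate 1 the difference after saline was −0.90 (adjusted p = 0.00666), and with the base composition correction it was −1.0 (adjusted p = 0.0287).

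Pde10a encodes the dual-substrate phosphodiesterase of striatal projection neurons. On its brighter probe, A_51_P419017, the level was 0.10, 0.08, −0.02 and 0.03 in WT saline, 0.34, −0.94, −0.37 and −1.54 in WT LPS, 0.27, −1.49, −1.13 and −1.29 in KO saline, and −1.93, −1.76, −1.57 and −1.16 in KO LPS. Of the 4 KO saline arrays 3 lay below all WT saline arrays and replicate 1 above them, and the LPS groups also overlapped. The difference was −0.96 ± 0.38 after saline (adjusted p = 0.0479) and −0.98 ± 0.38 after LPS (adjusted p = 0.0467). The call was lost in 13 of 16 leave-one-out fits after saline (−1.35 to −0.76 over the 16) and in 12 of 16 after LPS (−1.28 to −0.65, the last without WT LPS replicate 1). Of 10 other settings with a test, 6 lost the call after saline and 7 after LPS (adjusted p up to 0.176 and 0.188). On the AT-rich probe, A_52_P972559, the means were −4.40 ± 2.21 (SD, n = 4) in WT saline, −4.13 ± 0.50 in WT LPS, −3.14 ± 0.44 in KO saline and −2.93 ± 0.46 in KO LPS. WT saline replicate 1, at −7.70, was the only array on which it was not well above background. The KO minus WT difference was 1.26 ± 0.74 after saline (adjusted p = 0.166) and 1.20 ± 0.74 after LPS (adjusted p = 0.191). Without that array the difference after saline was 0.15 (adjusted p = 0.712), and the LPS difference, whose error it enters through the pooled spread, was called (1.20, adjusted p = 0.00383). The first probe minus the second ranged from 2.25 to 7.80 over the WT arrays and from 0.64 to 3.98 over the KO arrays, so the genotypes overlapped.

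Prkcd was lower in KO on both of its probes, and it showed the largest difference between LPS and saline in KO of the 7 genes. On A_51_P460734 the level was 0.41, 0.07, −0.51 and −0.59 in WT saline, 1.78, 0.31, −0.02 and −0.48 in WT LPS, −1.67, −2.37, −1.76 and −2.29 in KO saline, and −0.48, −0.30, −0.50 and −1.18 in KO LPS. On the junction probe A_52_P197498 it was −0.99, −0.76, −2.13 and −2.05 in WT saline, 0.36, −0.83, −1.49 and −1.35 in WT LPS, −4.11, −4.36, −3.86 and −4.12 in KO saline, and −2.37, −2.45, −2.46 and −3.35 in KO LPS. KO saline was the lowest group on both probes, with no array inside another group, and within WT slide 1 held the higher saline arrays. After saline the KO minus WT difference was −1.86 ± 0.39 (3.64-fold, adjusted p = 0.00119) on the first probe and −2.63 ± 0.39 (6.18-fold, adjusted p = 8.46e-05) on the junction probe. After LPS it was −1.01 ± 0.39 (adjusted p = 0.0442) and −1.83 ± 0.39 (adjusted p = 0.00147). The first of these LPS calls was lost in 8 of 16 leave-one-out fits with a difference of −0.55 without WT LPS replicate 1 (adjusted p = 0.156). It was also lost in 4 of 10 other settings with a test (adjusted p up to 0.0859). Under normexp the saline differences were −0.64 (adjusted p = 0.0767) and −0.17 (adjusted p = 0.716). The junction probe had intensities of 180 to 759 units in WT and 19.9 to 119 in KO, as dim there as Isl1. The first probe minus the junction probe ranged from 0.82 to 1.62 over the WT arrays and from 1.83 to 2.44 over the KO arrays. Across arrays with the genotype means removed the 2 probes had r = 0.95 (16 arrays, which share slides and scaling).

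**Figure D2:**
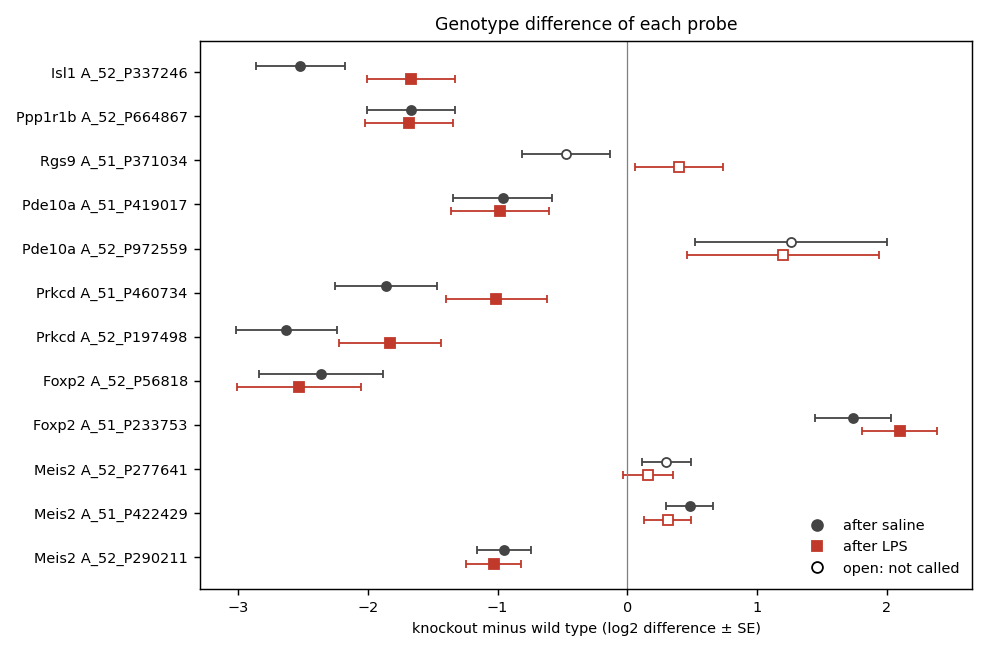
KO minus WT difference (log2, horizontal axis, ± SE) of each probe after saline (circles) and after LPS (squares), with open symbols where the adjusted p was 0.05 or more. Foxp2 lies at −2.36 and 1.74 on its 2 probes after saline, and Meis2 A_52_P290211 at −0.95 beside 0.30 and 0.48 on the other Meis2 probes.

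LPS was compared with saline within each genotype to see whether the immune challenge moved these genes. No member was called in WT, where no gene of 19462 was called by limma (0%) and 1258 had an unadjusted p under 0.05, and 2 genes were called when only the brightest probes entered the fit. None was called in KO either, beside 3.41% of all genes and 3.04% of kept probes. In WT the median of the 7 was −0.16 against −0.04 over all genes, and in KO it was −0.12 against −0.09. No member groups failed to overlap in WT (4.7% of all kept probes), and in KO only the 2 Prkcd probes did not overlap (10.5% of all kept probes). The difference between the LPS responses of KO and WT was not called for any member, beside 0.0103% of all genes and 0.00706% of kept probes.

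For Prkcd the LPS minus saline difference in KO was 1.40 ± 0.39 on A_51_P460734 (2.65-fold, adjusted p = 0.0727) and 1.45 ± 0.39 on A_52_P197498 (2.74-fold, adjusted p = 0.0606), so neither passed. Within slide 3 it was 1.53 and 1.57 (adjusted p = 0.042 and 0.0172), and within slide 4 it was 1.28 and 1.33 (adjusted p = 0.967 and 0.815), with 2 arrays against 2 in each. With slide as a fixed block the adjusted p was 0.0341 and 0.0232. Without WT LPS replicate 1, which lay far above the other WT LPS arrays, it was 0.012 and 0.0208. On A_52_P197498 it also passed without KO LPS replicate 4 (1.69, adjusted p = 0.036), without WT saline replicate 2 (0.0494) and without both WT saline arrays of slide 1 (0.0288). Leaving out WT arrays does not change the KO difference itself and acts on its error only through the pooled spread. Under normexp the difference was 0.46 (adjusted p = 0.264) and −0.31 (adjusted p = 0.574), so its direction on the dimmer probe depended on the background correction. In WT it was 0.55 ± 0.39 and 0.66 ± 0.39, not called, and the difference between genotypes in the response was 0.85 ± 0.56 (95% interval −0.33 to 2.03, adjusted p = 0.913) on A_51_P460734. Beside it, the authors' deposited table lists Prkcd on these probes as 2.65-fold and 2.7-fold up by LPS in KO. Thalamic markers, given because Prkcd is abundant there, had a mean level of −0.27 to 0.12 in KO saline and 0.03 to 0.29 in KO LPS, and 1 of 8 was called higher by LPS in KO (Plekhg1, 1.01 ± 0.24, adjusted p = 0.0265). Their part in the Prkcd difference was not tested.

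**Figure D3:**
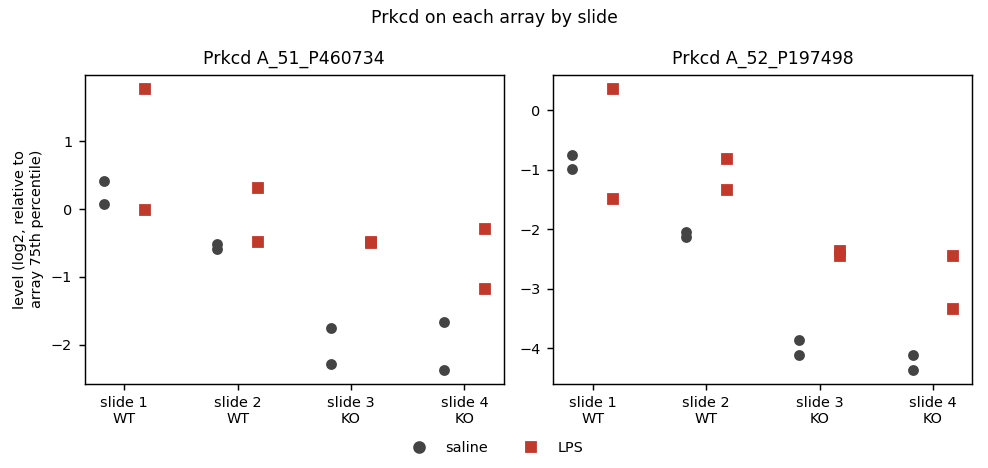
Level of the 2 Prkcd probes (log2, relative to the array 75th percentile) on each array, by slide and genotype on the horizontal axis, with saline as circles and LPS as squares. On slides 3 and 4 (KO) both LPS arrays lie above both saline arrays on each probe.

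The other members overlapped between saline and LPS on every probe in both genotypes. The LPS minus saline difference was −0.21 ± 0.34 in WT and 0.65 ± 0.34 in KO for Isl1 (adjusted p = 0.412 in KO). For Ppp1r1b it was −0.16 ± 0.34 and −0.17 ± 0.34. Rgs9 had −0.65 ± 0.34 in WT and 0.22 ± 0.34 in KO, and the difference between these responses was 0.88 ± 0.49 (adjusted p = 0.863). Pde10a had −0.68 ± 0.38 and −0.70 ± 0.38 on its brighter probe, and Foxp2 had 0.03 ± 0.48 and −0.13 ± 0.48. The 3 Meis2 probes ranged from 0.02 to 0.21 in WT and from −0.12 to 0.13 in KO. The order of the group means was WT above KO for Isl1, Ppp1r1b, Prkcd, Foxp2 A_52_P56818 and Meis2 A_52_P290211. Within a genotype no saline and LPS means of these genes differed by the test.

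The neurons that carry these genes were followed with further markers. Of 21 measured markers of striatal projection neurons 11 were called lower in KO after saline and 1 higher, and 6 were lower and none higher after LPS, with medians of −1.10 and −0.49. Over all genes 22.3% were called lower and 28.5% higher after saline, and 21.2% and 25.9% after LPS. Drd2, the D2 dopamine receptor, differed by −2.31 ± 0.44 after saline (adjusted p = 0.000544) and −1.20 ± 0.44 after LPS. Gng7 and Adcy5, a G protein subunit and the adenylyl cyclase that couple these receptors to cyclic AMP, differed by −1.89 ± 0.24 and −1.72 ± 0.28 after saline and by −1.60 ± 0.24 and −1.87 ± 0.28 after LPS. Strip2 differed by −1.91 ± 0.23 and Kcnab1, a potassium channel subunit, by −1.21 ± 0.28 after saline. The gene called higher was Chrm4, a muscarinic receptor, at 2.11 ± 0.59 (adjusted p = 0.00796). Other textbook markers did not pass, with Drd1 at −0.52 ± 0.31 and Penk at 0.10 ± 0.47 after saline, both named after their values were seen. Summed as a mean level the list lay between 0.90 and 1.79 on the WT arrays and between 0.54 and 0.76 on the KO arrays. WT saline replicates 1 and 2 were at 0.98 and 1.18 and replicates 3 and 4 at 1.79 and 1.75, and without the first 2 the count after saline was 12 lower and none higher.

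Markers of striatal cholinergic interneurons, in which Isl1 is also expressed, were called lower in KO for 4 of 5 measured genes in both comparisons, several of them on dim probes. The share of all genes called lower was 22.3% after saline and 21.2% after LPS. Under normexp 3 were higher and none lower after saline (median 0.92, against −2.32 as reported), and none higher and 1 lower after LPS. With only probes well above background on all arrays, 2 genes were left, 1 higher and 1 lower. Slc5a7, the choline transporter, differed by −2.72 ± 0.41 after saline and −2.40 ± 0.41 after LPS, with 2 of 4 arrays well above background in each KO group, and Lhx8, a LIM homeodomain factor of these cells, by −2.37 ± 0.33 and −1.92 ± 0.33. Zic4, a zinc finger transcription factor, differed by −1.46 ± 0.41 after saline and was not well above background on any KO LPS array, and Ache, acetylcholinesterase, was higher (0.99 ± 0.29 and 0.77 ± 0.29, named after its value was seen). Chat, Slc18a3 and Gbx2 did not pass the filter on dim probes, with Chat well above background on 1 of 4 arrays in each group. The list's mean level lay between −3.22 and −1.85 in WT and between −4.36 and −3.87 in KO.

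The signalling partners of DARPP-32 went both ways. Of 28 measured genes 9 were called lower and 6 higher in KO after saline, and 8 lower and 6 higher after LPS, with medians of −0.03 and −0.06. So did genes at large, of which 22.3% were called lower and 28.5% higher after saline, and 21.2% lower and 25.9% higher after LPS. Besides Gng7 and Adcy5, Gnb5, the G protein beta subunit that binds RGS9, differed by −1.78 ± 0.25 after saline and −1.73 ± 0.25 after LPS, and Prkar2a, a regulatory subunit of protein kinase A, by −1.36 ± 0.26 and −1.57 ± 0.26. Pde7b, a cyclic AMP phosphodiesterase, was called lower in KO after LPS but 0 of the 4 KO LPS arrays had it well above background, so no fold is given. It passed the filter on dim probes only through WT groups, with 1 of 4 KO saline arrays well above background. Pde4b, another such enzyme, was higher in KO by 1.16 ± 0.27 after saline and 2.65 ± 0.27 after LPS, and it was the 1 gene of the list called for LPS in KO (1.45 ± 0.27, adjusted p = 0.00686).

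Of 17 measured genes for ganglionic eminence transcription factors and GABA synthesis, 5 were lower and 4 higher in KO after saline, and 5 and 3 after LPS. The shares over all genes were 22.3% lower and 28.5% higher after saline, and 21.2% and 25.9% after LPS. Zfp503, a striatal transcriptional regulator, differed by −1.54 ± 0.23 after saline and rose with LPS in KO by 1.01 ± 0.23 (adjusted p = 0.0233). Meis1, the closest relative of Meis2, was higher in KO by 2.15 ± 0.36 after saline and 1.75 ± 0.36 after LPS, where it was well above background on 1 of 4 WT arrays. Dlx6 (2.02 ± 0.54) and Sp8 (1.5 ± 0.45) were called higher after saline, but both were dim, each well above background on 2 of 4 WT saline and 3 of 4 KO saline arrays, and they passed the filter only through KO groups. Gad1, which makes GABA, was lower by −1.30 ± 0.44 after LPS.

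Of 12 measured markers of the central amygdala 4 were called lower and 4 higher in KO after saline, and 3 lower and none higher after LPS, with medians of −0.11 and −0.03. Beside these counts, 22.3% of all genes were called lower and 28.5% higher after saline, and 21.2% and 25.9% after LPS. Ezr, a membrane linker, differed by −1.76 ± 0.26 after saline and rose with LPS in KO by 1.78 ± 0.26 (adjusted p = 0.00271). Nr2f2, an orphan nuclear receptor, was lower by −1.13 ± 0.28 and −0.96 ± 0.28, and Calcrl by −0.94 ± 0.31 after saline. Crhr1, the corticotropin-releasing hormone receptor, was higher by 1.08 ± 0.35 after saline. The list's mean level overlapped between genotypes (0.78 to 1.01 in WT and 0.62 to 0.98 in KO).

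Some markers of neighbouring regions and of other cells also differed between the genotypes, to be read beside the 28.5% of all genes called higher and 22.3% called lower in KO after saline, and the 25.9% and 21.2% after LPS. Of 7 hypothalamic genes 4 were higher in KO after saline and 3 after LPS, with Avp, vasopressin, at 3.14 ± 0.51 and 2.21 ± 0.51. Among these 7, 1 gene passed the filter on dim probes only through KO saline and was well above background on no WT array. Of 15 genes of cortex, hippocampus and basolateral amygdala 7 were lower after saline and 5 lower and 1 higher after LPS, with Lmo3 at −2.40 ± 0.58 and Fibcd1 at −1.87 ± 0.43 after saline. The gene higher after LPS was Spink8 (1.13 ± 0.24), named after its value was seen. Of 8 oligodendrocyte genes 6 were lower after saline, and 7 were lower and 1 higher after LPS. Among them Mal, a myelin protein, differed by −2.0 ± 0.31 and −1.91 ± 0.31, and the gene that was higher after LPS was Mbp (2.84 ± 0.86). Of 8 thalamic genes 4 were lower and 1 (Lef1) higher after saline, and 3 were lower and 1 higher after LPS, with medians of −0.52 and −0.58. Of 5 general neuronal genes 3 were higher after saline and 4 after LPS, with Rbfox3 at 2.21 ± 0.29 and 2.02 ± 0.29. That list's mean level lay between 3.65 and 4.35 in WT and between 4.88 and 5.11 in KO. Of 6 astrocyte genes 3 were higher and 1 lower after saline, and 3 were higher after LPS. Of 4 genes of intercalated cells, the inhibitory clusters around the basolateral amygdala, 2 were higher after saline, and 1 was higher and 1 lower after LPS. Of 5 genes of the globus pallidus 1 was higher and 2 lower after saline, and 2 and 2 after LPS. Nkx2-1 and Kcng4 of that list passed the filter on dim probes only through WT groups. Each was well above background on at most 1 array of a KO group. Microglia (5 genes), endothelium (4) and choroid plexus (3) had at most 2 genes called in either comparison. None of the 3 choroid plexus genes was called after saline, and 2 were lower in KO after LPS. Of these 3, 1 was well above background on only 1 of 4 arrays in each KO group. The choroid plexus list's mean level varied widely within WT, from −4.12 to −0.33, and lay between −4.10 and −2.46 in KO. The oligodendrocyte list's mean level lay between 1.41 and 3.24 in WT and between 1.02 and 1.68 in KO, and the hypothalamic list's between −2.97 and −1.13 and between −2.01 and −1.06. Among WT saline arrays the oligodendrocyte level was 2.07 and 2.01 on replicates 1 and 2 and 3.24 and 3.20 on replicates 3 and 4, the same division as in the striatal list. The part of tissue composition in the differences of the 7 genes was not tested.

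**Figure D4:**
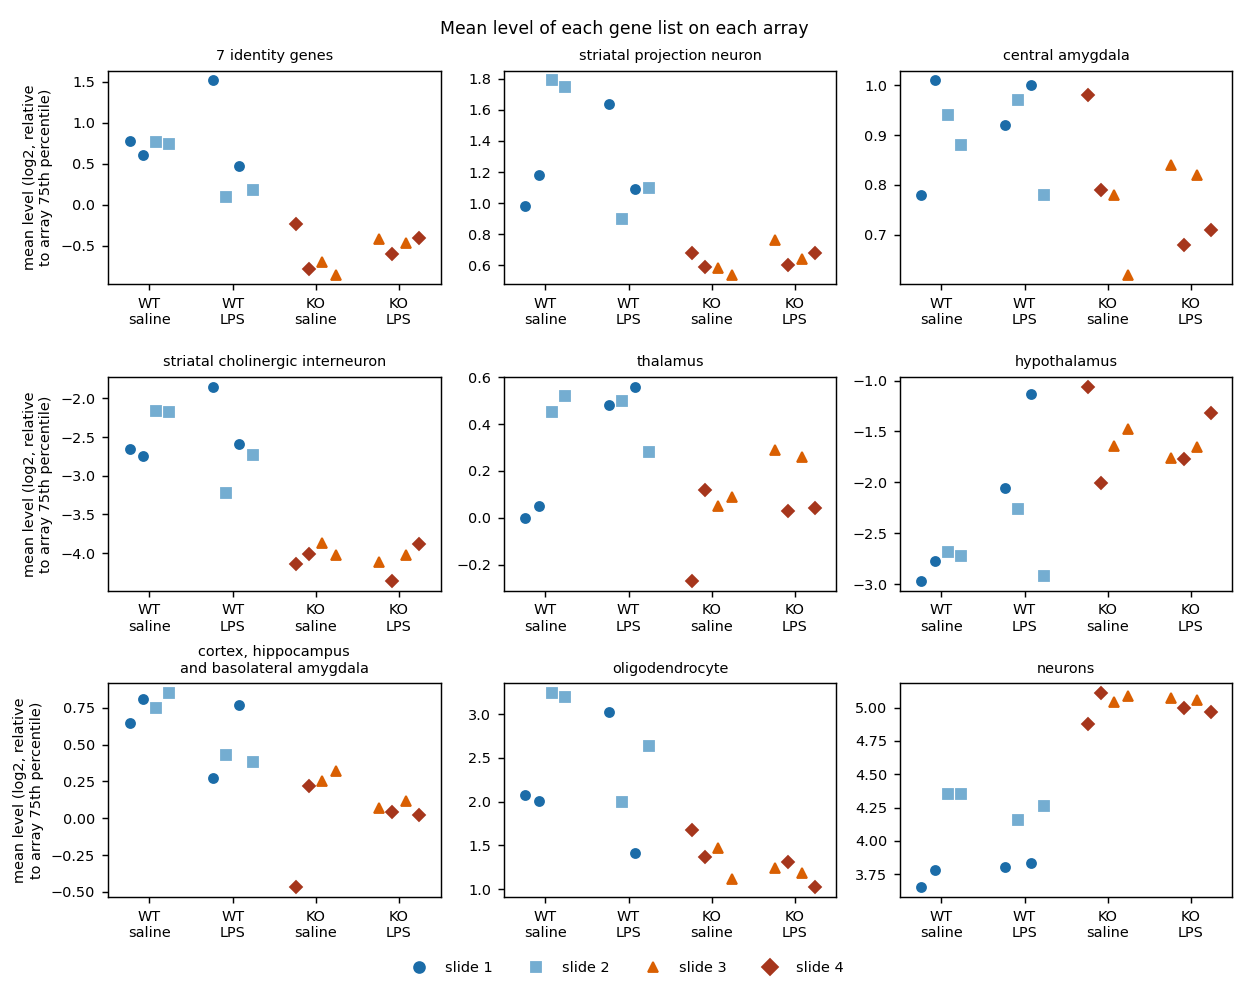
Mean level (log2, relative to the array 75th percentile) of the 7 identity genes and of 8 lists of regional and cell type markers on each array, by group, with the slide as symbol and colour. The 7 genes lie between 0.10 and 1.52 in WT and between −0.85 and −0.23 in KO, and the striatal list between 0.90 and 1.79 and between 0.54 and 0.76.

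The pattern of each member across the 16 arrays, with the mean of each genotype removed, was set against that of 14644 other genes with a symbol, as a description over arrays that share slides and scaling. The genes most like Isl1 were Zar1 (r = 0.90), Ctnna1 (0.81), Mme (0.80), Rerg (0.77) and Sh3gl3 (0.76), of which Mme, Zar1 and Rerg kept r of 0.86, 0.82 and 0.69 under normexp while Ctnna1 turned to −0.62. Those most like Ppp1r1b were Golm1 (0.87), Card19, Xrcc3, Zfp710 and Aspscr1 (0.84), and under normexp Golm1 fell to 0.03. Those most like Rgs9 were Dnajb12 and Vstm2l (both 0.89), then Mfsd13a, Rhog and Bok. Those most like Pde10a were Lamp1 and Gps1 (both 0.94), Anapc11, Laptm5 and Zfp157, and those most like Prkcd were Cstdc5 (0.87), Dll1, Nt5dc2, Rrp15 and Plekhf1. Meis2 was most like Panx1 (0.90), Col8a1, Gmeb1, Smdt1 and Dnajc19, and Foxp2 most like Acot6 (0.95), Emc2, Snx5, Brms1l and Cstf2t. Under normexp r ranged from 0.59 to 0.87 over the genes most like Rgs9 and from 0.55 to 0.92 for Pde10a. For Prkcd it ranged from 0.10 to 0.81, for Meis2 from 0.19 to 0.89, and for Foxp2 from −0.12 to 0.78. The median r with the striatal list was 0.36 for Isl1 against −0.02 over all genes, 0.41 for Rgs9 against 0.17, and −0.03 for Prkcd against −0.11. It was about as high with the oligodendrocyte list, at 0.30 for Isl1 and 0.38 for Rgs9, and higher there for Ppp1r1b (0.42 against 0.26 with the striatal list) and Meis2 (0.36 against 0.25). Among the members themselves, Ppp1r1b had r = 0.68 with Pde10a and 0.55 with Rgs9, and Isl1 had 0.63 with Prkcd on A_51_P460734. KO saline replicate 1 was the highest KO array for Ppp1r1b (−0.11), Pde10a (0.27, brighter probe) and Rgs9 (1.73). How far these r values rest on that array was not tested.

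**Figure D5:**
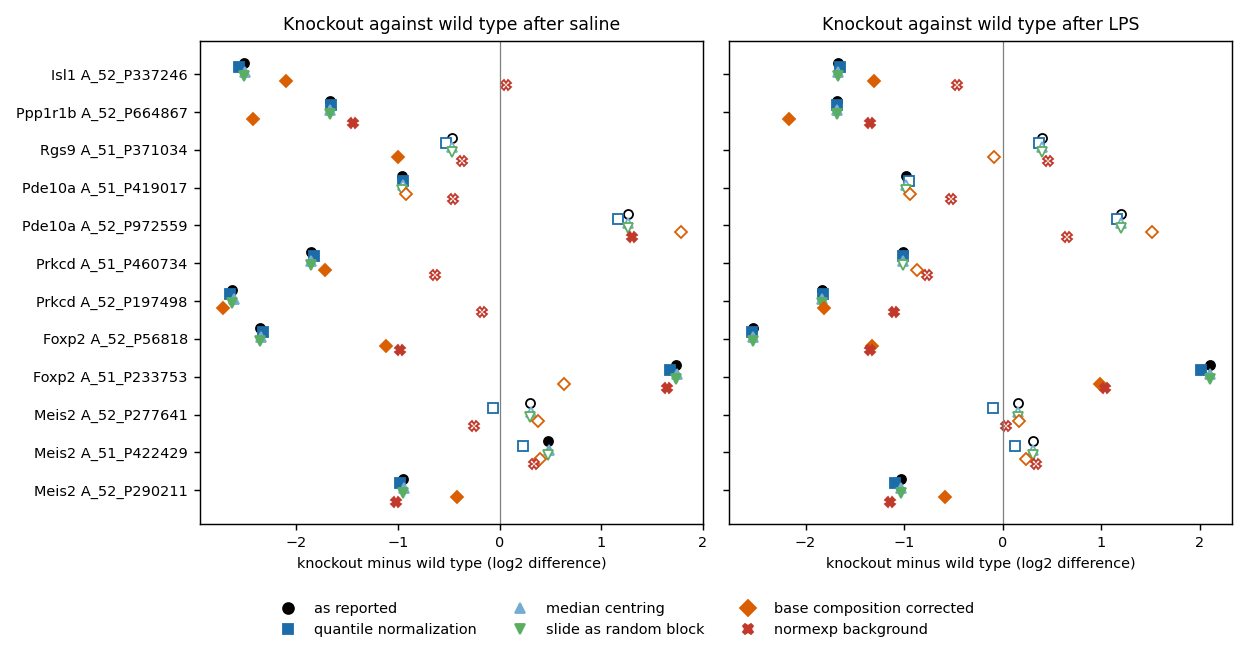
KO minus WT difference (log2, horizontal axis) of each probe after saline and after LPS under 6 settings, filled where the adjusted p was under 0.05 and open otherwise. Isl1 after saline moves from −2.52 to 0.06 under normexp, Ppp1r1b lies between −2.43 and −1.44 after saline, and the base composition correction brings the 2 Foxp2 probes to −1.12 and 0.63.

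In the authors' deposited table of fold changes, 7 of the 12 probes are present. That deposited table lists Isl1 as 5.68-fold down in KO after saline and 3.2-fold down after LPS, Ppp1r1b as 3.19-fold and 3.21-fold down, and Foxp2 A_52_P56818 as 5.14-fold and 5.77-fold down. It lists Prkcd as 3.64-fold down on A_51_P460734 and 6.07-fold down on A_52_P197498 after saline. Its values for Meis2 A_52_P290211 are lower in KO, by 1.94-fold with saline and by 2.04-fold with LPS. Pde10a A_52_P972559 goes the other way, 2.36-fold higher in KO with saline and 2.29-fold higher with LPS. Neither of these Pde10a differences was called here. Foxp2 A_51_P233753, which was higher in KO here, is not among the deposited rows, nor are Rgs9, the brighter Pde10a probe and the other 2 Meis2 probes.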

How the data were processed

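RNA from whole amygdala was hybridised to 16 one-colour Agilent arrays and read, per the submitters' processing notes, with Feature Extraction 9.5. Per the file headers, the deposited spot intensity had its local background subtracted and spatial trends removed, array by array. The authors' deposited lists hold log2 values averaged per group and a linear fold (ratio) for 4 comparisons, with 32 detection call columns left aside. For the values given, control spots were left out, 0 to 79 outlier spots an array were dropped, and none was saturated. Log2 intensity minus the 75th percentile of the array was fitted with limma 3.58.1 (R 4.3.3, statmod 1.5.0) for probes well above background on at least 3 of 4 arrays of a group (28345 probes). Each gene stood for its brightest kept probe (19462 genes). The number of arrays limits the precision. The fit was tested on simulated data with independent noise and no slide effect. That test cannot show whether calls between KO and WT are free of slide effects.

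The members and lists were chosen with earlier results of these data known. Named genes were all members, the 5 most similar genes per member, up to 4 called genes with the largest change per list and comparison, genes called in opposite directions, and P2rx7. Alternatives were normexp, quantile and median scaling, other filters, slide and replicate blocks, single slides, base composition and arrays left out. No annotation on mm9 was used, so exon, intron and UTR positions are not given. 1 gene of a marker list is counted but not reported by name.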

Additional observations from a re-analysis of the deposited data

Results flagged for a closer look

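In 6 of 48 combinations of probe and group 1 array lay far from the other 3, where chance gives about 1 in 20. Rgs9 was at 1.73 on KO saline replicate 1 and at 0.08 on the next highest array of that group. Pde10a A_52_P972559 was at −7.70 on WT saline replicate 1, with the next lowest at −3.53. Prkcd A_52_P197498 was at −3.35 on KO LPS replicate 4, with the next lowest at −2.46. That same array held the highest Meis2 values of its group, 4.25 on A_51_P422429 (next 3.78) and 4.96 on A_52_P277641 (next 4.5). Foxp2 A_52_P56818 was at 1.59 on WT saline replicate 1, with the next highest at 0.67.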

How the results depend on the processing

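The count of members lower in KO was 5 after saline and 5 after LPS as reported. Under normexp it was 2 after saline and 2 after LPS, and the Isl1 difference after saline turned to 0.06. The count after LPS was 3 with no filter on dim probes, with slide as a random block and with the base composition correction, and 3 to 5 over the leave-one-out fits. Members higher with LPS in KO numbered 0 as reported and 1 (Prkcd) with slide as a fixed block, with the replicate block and within slide 3, and 0 to 1 over the leave-one-out fits. With the replicate block Prkcd had adjusted p = 0.0248 on A_51_P460734 and 0.0373 on A_52_P197498. The replicate numbers did not pair arrays: 2 of 24 same-numbered pairs had r over 0.1 (−0.40 to 0.32). Differences between KO and WT could not be computed within a slide or with slide as a fixed block, and the authors' group means gave values with no test, with Foxp2 A_51_P233753 absent. Dim signal limits Isl1 and Prkcd A_52_P197498 in KO, Foxp2 A_51_P233753 and Pde10a A_52_P972559.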
